A study of Mus musculus with 6 samples.

Results

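Genes of GABA and glycine signalling, the pathways of synaptic inhibition, were examined in mouse primary hippocampal neurons that had received apolipoprotein E (apoE) particles. Of 26 genes named for the set, 24 reached a log2 value of 3.32 (the log2 of 10) in at least 3 samples, and each of the 24 did so in all 6. They are 24 of 15055 genes that passed the same filter, out of 47593 symbols in the deposited tables. The lowest to pass was Gabre, at 3.81 to 3.85 with microglial and 3.81 to 3.82 with astrocytic apoE. The 2 glycine receptor genes that did not pass were Glra3, at 3.21 to 3.24 with microglial and 3.20 to 3.24 with astrocytic apoE, and Glra1, which lay at -1.97 or -1.96 in every sample.

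One group was treated with microglial apoE particles and the other with astrocytic apoE particles (n = 3 samples each), both at 6 µg/mL for 24 h from culture day 10. Both groups consisted of wild-type neurons from hippocampus, grown in Neurobasal with B27 and GlutaMAX. The labels name no strain, age or sex and leave unsaid whether replicates are separate dissections, so p-values measure the spread between these samples, which may be technical. Neurons without particles were not analysed here, and each direction is microglial against astrocytic apoE.

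Inhibitory neurons make GABA from glutamate with glutamate decarboxylases, load it into synaptic vesicles with a transporter shared with glycine, and release it onto GABA-A receptors, which are pentameric chloride channels, and onto GABA-B receptors, which act through G proteins. Released GABA is taken up by neurons and astrocytes and broken down in mitochondria. The direction of the chloride current depends on transporters that bring chloride in or carry it out, and young neurons hold more chloride than mature ones. Glycine receptors are related chloride channels, and early hippocampal neurons use forms that contain the alpha 2 subunit.

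With microglial apoE, the genes for making and loading GABA rose by a small amount, and the receptor genes of the set that passed the test all fell. Gad1 was 1.19-fold, Gad2 1.13-fold and Slc32a1 1.115-fold higher, whereas Slc6a11, which takes up GABA, was 1.44-fold lower. Of 14 receptor subunits tested, 5 fell and 0 rose, by 1.07-fold to 1.20-fold. In all, 5 of 24 members (20.8%) rose and 7 (29.2%) fell in limma, at a Benjamini-Hochberg adjusted p under 0.05 across the 15055 genes. Over all 15055 genes, 24.9% were called, 13.0% higher and 11.8% lower. The 3 samples of each group did not overlap for 16 members, 5 higher and 11 lower, against 38.9% of all genes tested, 20.1% higher and 18.8% lower. Levels are log2 values of 1 sample on the deposited scale, and a log2 fold change is the difference between the group means.

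**Figure D1:**
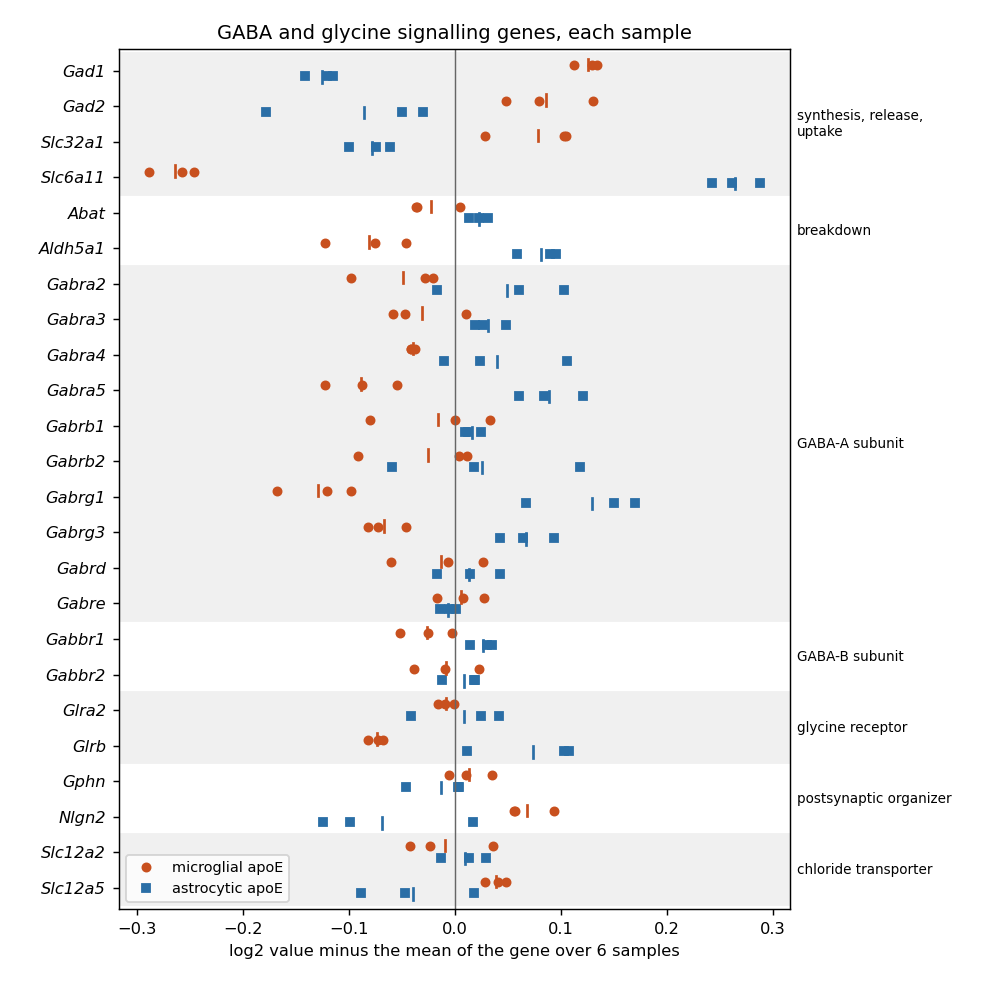
Level of each of the 24 members in each sample, as the log2 value minus the gene's mean over 6 samples (x axis), with microglial apoE samples as orange circles and astrocytic apoE samples as blue squares; short lines are group means and the right margin names the role. Gad1, Gad2 and Slc32a1 lie to the right with microglial apoE, and Slc6a11 and most receptor subunits to the left.

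Gad1 encodes GAD67, the decarboxylase that makes most of the GABA in neurons. Its levels were 12.81, 12.79 and 12.81 with microglial apoE and 12.54, 12.56 and 12.56 with astrocytic apoE. All 3 microglial apoE samples lay above the others by far more than the spread within a group, and the log2 fold change was 0.25 ± 0.025 (SE, adjusted p = 3.4e-08). Gad2 encodes GAD65, the decarboxylase bound to synaptic vesicles. Its levels were 11.59, 11.56 and 11.64 with microglial apoE and 11.48, 11.46 and 11.34 with astrocytic apoE, with astrocytic sample 3 the lowest. The groups did not overlap, and the log2 fold change was 0.17 ± 0.034 (SE, adjusted p = 0.00084). Slc32a1 encodes the vesicular transporter that loads GABA and glycine. Its levels were 10.64, 10.64 and 10.57 with microglial apoE and 10.47, 10.44 and 10.48 with astrocytic apoE, again without overlap (0.16 ± 0.029 SE, adjusted p = 0.00023). An antisense gene, Gm14205, overlaps 24.9% of the Slc32a1 exons, and it is listed at 0 in all 6 samples.

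Slc6a11 encodes a GABA transporter found mainly on astrocytes (GAT-3 in rat). Its levels were 10.87, 10.84 and 10.88 with microglial apoE and 11.39, 11.37 and 11.41 with astrocytic apoE. The groups stood apart by far more than the SD within either one (0.022 in each), and the log2 fold change was -0.53 ± 0.027 (SE, adjusted p = 6.4e-14). With this gene the 4 genes of synthesis, release and uptake had a median log2 fold change of 0.16 and a mean of 0.013, since 3 rose and 1 fell. The median over all genes tested was -0.0006.

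The breakdown enzymes were lower or did not pass. Aldh5a1, the mitochondrial dehydrogenase that completes GABA breakdown, had levels of 9.99, 9.95 and 10.02 with microglial apoE and 10.16, 10.16 and 10.13 with astrocytic apoE. The log2 fold change was -0.16 ± 0.029 (SE, adjusted p = 0.00016). Antisense transcripts overlap its exons, of which 4932702P03Rik covers 14.1% and stood at 3.10 to 3.12 with microglial and 3.11 to 3.13 with astrocytic apoE. Abat, the GABA transaminase that acts before it, did not pass (-0.045 ± 0.027 SE, adjusted p = 0.23).

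The 250 bases before the RefSeq start of the 3 genes that rose together, and of Slc6a11 and Gabrg1, the members with the largest falls, are shown to set their start regions side by side (RefSeq, GRCm38.p6, 5′ to 3′ on the gene's strand). Capitals mark matches on either strand to the E-box CANNTG, the GC box GGGCGG and the homeodomain core TAATT. A stretch that matches on both strands in shifted positions is counted for each.
Gad1: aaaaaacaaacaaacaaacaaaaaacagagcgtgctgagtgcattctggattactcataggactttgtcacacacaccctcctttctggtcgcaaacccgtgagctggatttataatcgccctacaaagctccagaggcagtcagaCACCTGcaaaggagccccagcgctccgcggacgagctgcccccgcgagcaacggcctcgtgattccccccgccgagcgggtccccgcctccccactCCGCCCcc
Gad2: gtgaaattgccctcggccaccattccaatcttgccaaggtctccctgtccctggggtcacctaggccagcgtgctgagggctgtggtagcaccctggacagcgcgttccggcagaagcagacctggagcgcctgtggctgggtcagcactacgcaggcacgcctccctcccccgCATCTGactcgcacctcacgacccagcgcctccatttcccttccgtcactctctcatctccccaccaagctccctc
Slc32a1: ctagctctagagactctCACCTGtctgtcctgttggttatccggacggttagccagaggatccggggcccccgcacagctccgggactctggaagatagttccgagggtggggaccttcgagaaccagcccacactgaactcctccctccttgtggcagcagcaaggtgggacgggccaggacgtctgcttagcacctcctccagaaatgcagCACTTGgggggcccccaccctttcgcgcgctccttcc
Slc6a11: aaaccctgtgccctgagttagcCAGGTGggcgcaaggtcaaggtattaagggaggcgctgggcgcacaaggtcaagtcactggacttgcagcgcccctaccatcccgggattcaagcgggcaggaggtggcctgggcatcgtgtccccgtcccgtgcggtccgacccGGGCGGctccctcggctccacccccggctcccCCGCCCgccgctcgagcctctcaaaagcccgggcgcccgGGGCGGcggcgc
Gabrg1: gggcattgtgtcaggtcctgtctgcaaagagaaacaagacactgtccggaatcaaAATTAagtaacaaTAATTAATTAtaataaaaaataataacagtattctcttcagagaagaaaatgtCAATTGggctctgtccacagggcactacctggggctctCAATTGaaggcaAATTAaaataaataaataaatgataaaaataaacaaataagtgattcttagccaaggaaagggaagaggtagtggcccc
The windows lie at chr2:70561879-70562128 (Gad1), chr2:22622077-22622326 (Gad2), chr2:158610508-158610757 (Slc32a1) and chr6:114130991-114131240 (Slc6a11), all on the plus strand, and at chr5:70842618-70842867 on the minus strand (Gabrg1). In GENCODE M21 the Gad1 gene starts at 70553072, so its window lies inside the annotated gene. The Gad2 gene starts there at 22622205, within its window. An E-box match was present in all 5 windows, as in 66.2% of 32851 windows of this length before RefSeq starts. A GC box match was present in those of Gad1 (1 match) and Slc6a11 (3 matches) and in 32.7% of all windows. The homeodomain core occurred only in the Gabrg1 window among these 5, with 6 matches, and in 25.0% of all windows. The Gabrg1 window held 1 CpG and 35.6% G or C, whereas the other 4 held 12 to 25 CpGs and 58.0% to 71.2% G or C, against medians of 6 and 52.4% over all windows. RefSeq windows were examined for 22 of the 26 members, and those of the others were missing or not examined. Over the 27 windows of these 22 members, an E-box match was present in 15 and a GC box match in 15. The homeodomain core was present in 5 of the 27, among them those of Aldh5a1 and Glra3. A Gabra3 window held 0 CpGs and 39.2% G or C, so few CpGs were not particular to Gabrg1. The 5 windows printed were picked by fold change.

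The GABA-A receptor genes had a median log2 fold change of -0.071 over 10 subunits, of which 4 fell and 0 rose. Over all genes tested, 11.8% fell and 13.0% rose. Gabrg1, the gamma 1 subunit, had the largest fall among the 14 receptor subunits tested. Its levels were 8.64, 8.57 and 8.62 with microglial apoE and 8.89, 8.91 and 8.81 with astrocytic apoE, with no overlap (-0.26 ± 0.033 SE, adjusted p = 1.5e-06). Gabra5 encodes the alpha 5 subunit, which is abundant in hippocampus and serves largely extrasynaptic receptors. Its levels were 11.53, 11.50 and 11.46 with microglial apoE and 11.70, 11.67 and 11.64 with astrocytic apoE (-0.18 ± 0.028 SE, adjusted p = 3.4e-05). Here too each microglial apoE sample lay below each astrocytic apoE sample.

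Gabrg3, the gamma 3 subunit, had levels of 7.95, 7.96 and 7.99 with microglial apoE and 8.08, 8.13 and 8.10 with astrocytic apoE (-0.13 ± 0.030 SE, adjusted p = 0.0016). Gabra2, an alpha subunit of synaptic receptors, had levels of 9.786, 9.855 and 9.863 with microglial apoE and 9.986, 9.944 and 9.867 with astrocytic apoE. The groups nearly touched, because astrocytic sample 3 lay only just above microglial sample 3 (-0.097 ± 0.033 SE, adjusted p = 0.031). This call was lost without microglial sample 1 (adjusted p = 0.18), without astrocytic sample 1 (adjusted p = 0.19) or sample 2 (adjusted p = 0.12), with the summed linear value made equal between samples (adjusted p = 0.061) and without the trend and robust options of limma (adjusted p = 0.061).

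The other 6 GABA-A subunits did not pass. Gabra4, which often pairs with the delta subunit, had a log2 fold change of -0.080 ± 0.032 (SE, adjusted p = 0.073), and Gabra3 one of -0.062 ± 0.029 (SE, adjusted p = 0.12). The groups did not overlap for either gene. With each sample centred on its median both passed (Gabra4 adjusted p = 0.029, Gabra3 adjusted p = 0.043), and Gabra4 also passed without astrocytic sample 3 (adjusted p = 0.019). The beta subunits, which complete the GABA binding site, gave -0.032 ± 0.030 for Gabrb1 (SE, adjusted p = 0.48) and -0.050 ± 0.039 for Gabrb2 (SE, adjusted p = 0.38), with overlapping groups. Gabrd, the delta subunit of extrasynaptic receptors, gave -0.026 ± 0.026 (SE, adjusted p = 0.51). Gabre, the epsilon subunit, gave 0.012 ± 0.014 (SE, adjusted p = 0.55), and its sign turned to -0.006 with median centring.

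**Figure D2:**
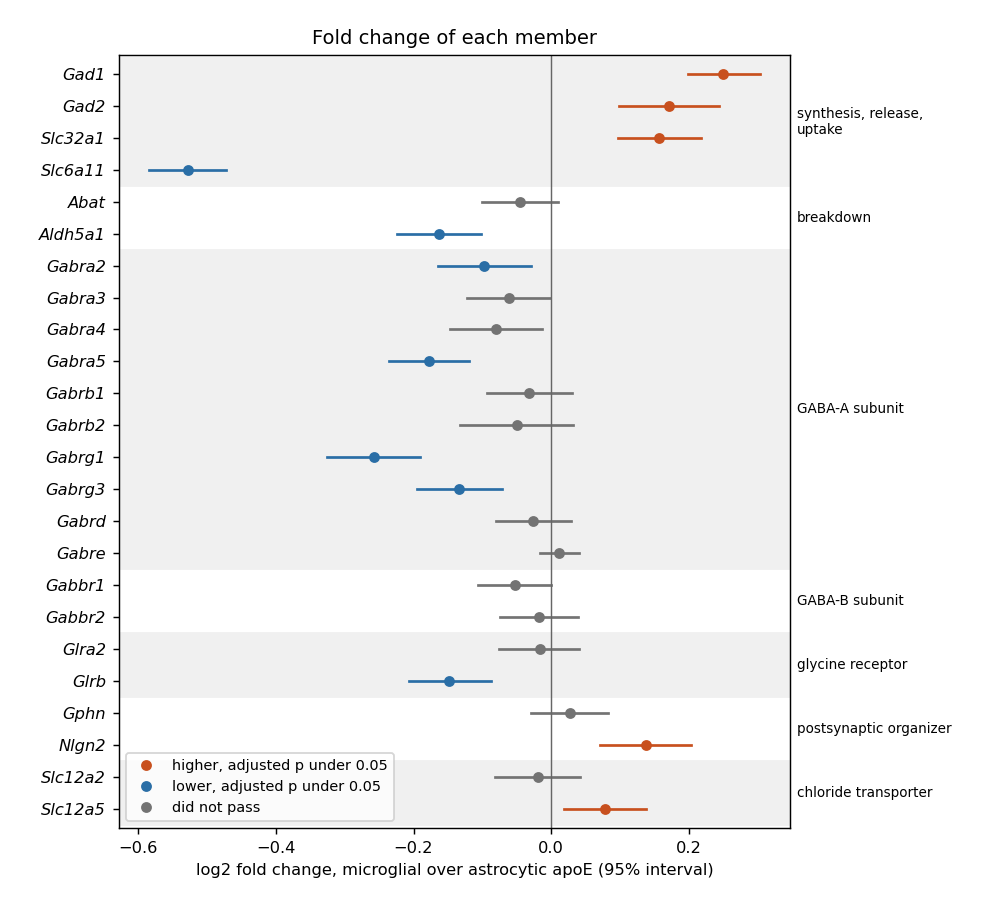
Log2 fold change of each member, microglial over astrocytic apoE, with the 95% interval of limma (n = 3 samples per group); colours mark genes that were higher (orange) or lower (blue) at an adjusted p under 0.05 and genes that did not pass (grey). Slc6a11 stands apart at -0.53, and 13 of the 14 receptor subunits lie left of 0, of which 5 passed. Over all 15055 genes tested, 7592 had a negative log2 fold change.

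Many of these subunits sit in gene clusters (GENCODE M21, GRCm38). Gabrg1, Gabra2, Gabra4 and Gabrb1 lie in a row on chromosome 5, from 70751047 to 72149037, of which the first 2 fell and the other 2 did not pass. Gabra4 (minus strand) and Gabrb1 (plus strand) overlap head to head by 46 exonic bases, and reads there cannot be assigned, because the strand setting of the counting is not given in the sources used here. Gabrg3 and Gabra5 lie on chromosome 7, from 56716465 to 57510059, and both fell. Gabre and Gabra3 lie on chromosome X, from 72255999 to 72656848, and neither passed. Of the 5 genes that rose, 4 (Gad1, Gad2, Slc32a1 and Slc12a5) lie on chromosome 2, where 12.3% of 1164 tested genes rose.

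Neither GABA-B receptor gene passed. Gabbr1, the subunit that binds GABA, had levels of 12.98, 12.93 and 12.96 with microglial apoE and 12.997, 13.013 and 13.018 with astrocytic apoE (-0.053 ± 0.026 SE, adjusted p = 0.14). The groups did not overlap, and the gene passed with median centring (adjusted p = 0.037). Gabbr2, the subunit that couples to the G protein, had a log2 fold change of -0.018, with a 95% interval of -0.074 to 0.039 and overlapping groups.

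Of the 4 glycine receptor genes, 2 were tested. Glrb, the beta subunit that anchors the receptor to gephyrin, had levels of 11.48, 11.49 and 11.49 with microglial apoE and 11.67, 11.66 and 11.57 with astrocytic apoE. The log2 fold change was -0.15 ± 0.029 (SE, adjusted p = 0.00043), without overlap. Glra2, the alpha subunit of immature neurons, did not pass (-0.017, 95% interval -0.076 to 0.041), and its groups overlapped. Glra1, the main alpha subunit of the adult spinal cord, and Glra3 were below the filter in every sample.

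On the postsynaptic side 1 organizer rose. Nlgn2 encodes neuroligin 2, the adhesion protein of inhibitory synapses. Its levels were 11.47, 11.50 and 11.47 with microglial apoE and 11.29, 11.31 and 11.43 with astrocytic apoE, with astrocytic sample 3 closest to the microglial apoE group (0.14 ± 0.032 SE, adjusted p = 0.0025). Gphn encodes gephyrin, the scaffold to which glycine and GABA-A receptors are tethered. It did not pass (0.027, 95% interval -0.030 to 0.083), and its groups overlapped.

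Slc12a5 encodes KCC2, which carries chloride out of mature neurons. Its levels were 11.76, 11.75 and 11.77 with microglial apoE and 11.63, 11.67 and 11.74 with astrocytic apoE, and it passed by a narrow margin (0.078 ± 0.029 SE, adjusted p = 0.0498). The call was lost in 8 of 12 alternatives, among them leaving out either of microglial samples 1 and 3 or either of astrocytic samples 1 and 2 (adjusted p = 0.13 to 0.27), the replicate block (adjusted p = 0.073) and median centring (adjusted p = 0.12). Slc12a2 encodes NKCC1, which brings chloride in, and did not pass (-0.019, 95% interval -0.081 to 0.042).

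Differences between 2 members within a sample do not depend on the scaling between samples. Slc12a5 minus Slc12a2 was 1.77, 1.77 and 1.71 with microglial apoE and 1.58, 1.64 and 1.73 with astrocytic apoE on the log2 scale, a difference of 0.097 between the groups (two-sided exact permutation test, p = 0.2). The groups overlapped through astrocytic sample 3. Gad1 minus Gad2 was 1.22, 1.23 and 1.16 with microglial apoE and 1.05, 1.10 and 1.22 with astrocytic apoE, a difference of 0.079 with overlap (exact p = 0.3). Gabbr1 minus Gabbr2 was 1.51, 1.53 and 1.52 with microglial apoE and 1.54, 1.58 and 1.56 with astrocytic apoE, without overlap (difference -0.036, exact p = 0.1). A comparison of 3 samples with 3 cannot give a two-sided p below 0.1, and all 3 pairs had an adjusted p of 0.3.

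The medians of the receptor subunits and of the genes for making and loading GABA lay on opposite sides of 0 in each sample; Slc6a11, which fell, is not in these medians. The median deviation of Gad1, Gad2 and Slc32a1 from their own means over 6 samples was 0.10, 0.10 and 0.13 with microglial apoE and -0.074, -0.10 and -0.12 with astrocytic apoE. The same median over the 14 receptor subunits was -0.016, -0.049 and -0.031 with microglial apoE and 0.033, 0.045 and 0.012 with astrocytic apoE. Neither pair of groups overlapped. Centring a gene on its own mean puts its 2 group means on opposite sides of 0 in any case. Of the 14 subunits, 5 passed singly and 9 did not, and these medians carry no test because the members were chosen with earlier results known. The receptor subunits had a median log2 fold change of -0.058, against -0.0006 over all genes tested.

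**Figure D3:**
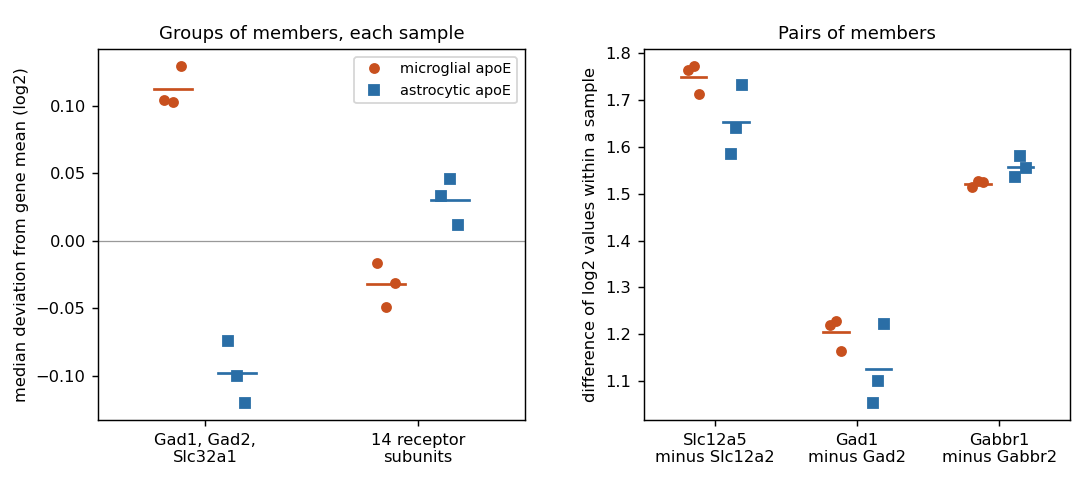
Left, median deviation from the gene mean (log2) in each sample for Gad1, Gad2 and Slc32a1 and for the 14 receptor subunits; right, difference of the log2 values of 2 members within a sample; orange circles are microglial apoE, blue squares astrocytic apoE and lines group means. The left groups separate in opposite directions, and 2 of the 3 pairs on the right overlap.

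The level of different genes was compared as the linear value (2 raised to the log2 value) per kb of exon. Gabbr1 stood highest with microglial apoE and Gabra5 with astrocytic apoE. Gabbr1 was at 1023 ± 17.3 with microglial and 1062 ± 7.89 with astrocytic apoE (SD, n = 3). Gabra5 was the most abundant GABA-A subunit of the set, at 970 ± 23.1 with microglial and 1097 ± 23.7 with astrocytic apoE, above Gabra3 at 275 ± 7.12 with microglial and 287 ± 2.98 with astrocytic apoE. Gad1 followed at 935 ± 7.55 with microglial and 786 ± 7.61 with astrocytic apoE, ahead of Glra2, Gphn and Glrb, which lay between 617 and 664 with microglial and between 639 and 684 with astrocytic apoE. Gabrb1, Gabrb2 and Gabra2 did not differ from each other beyond their spread, at 120 to 125 with microglial and 128 to 129 with astrocytic apoE. Gabrd and Gabrg3 lay between 21.0 and 26.5 with microglial and between 23.0 and 27.0 with astrocytic apoE, and Gabre at 3.0 with microglial and 2.97 with astrocytic apoE. Slc6a11 changed its place most, at 368 ± 5.53 with microglial apoE, below Abat and Gabbr2, and at 531 ± 8.29 with astrocytic apoE, above both and above Gad2.

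**Figure D4:**
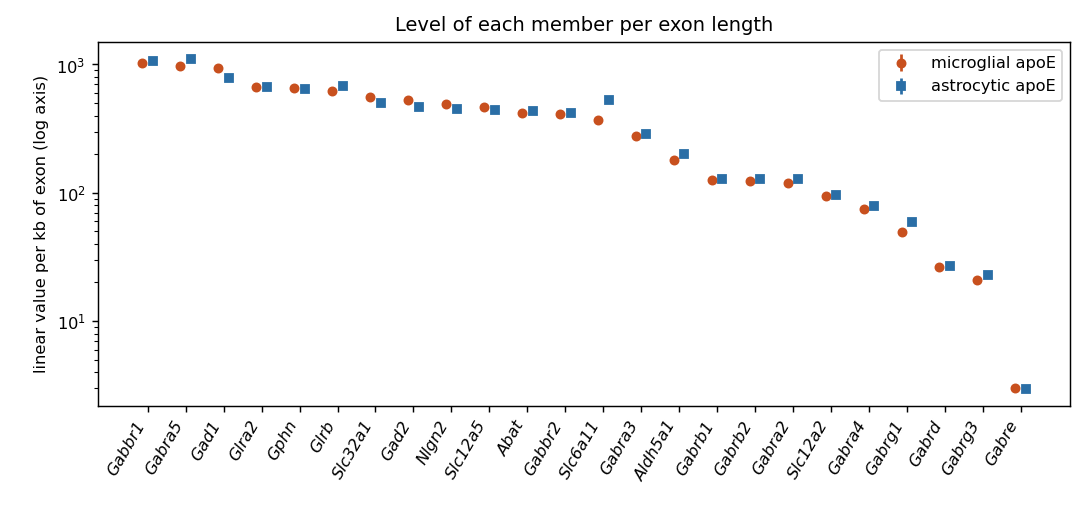
Level of the 24 members per exon length (mean linear value per kb of exon, log axis; bars are SD over 3 samples, often smaller than the symbol), ordered by the level with microglial apoE (orange circles), with astrocytic apoE as blue squares. Gabbr1, Gabra5 and Gad1 stand highest and Gabre lowest, at 3.0 with microglial and 2.97 with astrocytic apoE.

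Other genes of the pathway were followed as lists. Over all genes tested, 13.0% rose and 11.8% fell, and no list was tested as a set. In the list of inhibitory postsynapse assembly, 3 of 18 tested genes fell and 1 rose (median log2 fold change -0.0003). Dag1, the dystroglycan gene, fell by 0.14 on the log2 scale (adjusted p = 0.00035). Plcl1 (-0.11, adjusted p = 0.010), which encodes a phospholipase-like protein that binds GABA-A receptors, and Trak2 (-0.097, adjusted p = 0.012), which encodes a kinesin adaptor, fell as well. Ubqln1, whose product binds GABA-A subunits, rose (0.074, adjusted p = 0.033). Leaving out 1 sample gave 1 to 4 lower and 0 to 4 higher genes, and the calls of Plcl1, Trak2 and Ubqln1 were each lost without microglial sample 1 or without astrocytic sample 1. That of Trak2 was also lost without astrocytic sample 2 (adjusted p = 0.063), and that of Ubqln1 was lost in 7 of 12 alternatives (adjusted p up to 0.13), the replicate block (0.074) and median centring (0.096) among them. The 4 higher genes appeared without astrocytic sample 3, and 0 were higher without microglial sample 1, astrocytic sample 1 or astrocytic sample 2.

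Among GABA-B effectors 1 of 11 fell and 0 rose: Gnai2, a G protein alpha subunit, fell by 0.15 on the log2 scale (adjusted p = 0.00021), and without astrocytic sample 3 the lower genes were 2. Auxiliary subunits of the receptor did not pass (Kctd12 0.049, adjusted p = 0.245, and Kctd16 -0.058, adjusted p = 0.092), nor did Gnb1, a G protein beta subunit (0.051, adjusted p = 0.145). In the chloride list 1 of 12 rose and 1 fell. Slc12a4, the potassium chloride transporter KCC1, rose by 0.19 (adjusted p = 2.7e-05). Neto2, which binds KCC2 and kainate receptors, fell by 0.12 (adjusted p = 0.0042), a call lost without astrocytic sample 2 (adjusted p = 0.057). The list had 2 higher genes without microglial sample 2 and 2 lower genes without astrocytic sample 3. Clcn3, a chloride-proton exchanger, and the kinase Wnk4 did not pass (-0.076, adjusted p = 0.074, and 0.029, adjusted p = 0.23).

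For GABA supply, 1 of 6 tested genes rose and 0 fell, and without microglial sample 3 the lower genes were 1. Slc38a2, a glutamine transporter, rose by 0.21 (adjusted p = 1.5e-06). The glutamine transporters Slc38a1 (0.047, adjusted p = 0.22) and Slc38a3 (0.036, adjusted p = 0.34) and Aldh9a1, an aldehyde dehydrogenase (-0.084, adjusted p = 0.065), did not pass. In the glycine list 3 of 8 genes rose and 3 fell. Slc6a9, the glycine transporter GlyT1, rose, at 10.62 ± 0.02 with microglial and 10.38 ± 0.02 with astrocytic apoE (SD, n = 3, log2 fold change 0.24, limma adjusted p = 3.0e-07). Shmt2, which makes glycine from serine in mitochondria, rose by 0.11 (adjusted p = 0.0038). Outside the naming rule and named after their values were seen, Shmt1, the cytosolic form, rose by 0.084 and Slc7a10, an amino acid transporter that carries glycine and D-serine, fell by 0.069. Gcsh (-0.17, adjusted p = 0.00012) and Amt (-0.13, adjusted p = 0.0079), of the glycine cleavage system, fell, and the call of Amt was lost without astrocytic sample 1 (adjusted p = 0.076) or 2 (adjusted p = 0.059). Of a list of 7 further subunit genes 1 passed the filter, Gabrq, the theta subunit, and it did not pass the test (-0.027, adjusted p = 0.22).

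Markers of the cell types that such cultures could hold were counted in the same comparison, in which 13.0% of all genes tested rose and 11.8% fell. Of 17 markers of inhibitory neurons, 9 rose and 2 fell (median 0.10), and their summed linear value was 23682 to 24040 with microglial and 20994 to 21584 with astrocytic apoE. Sst, the somatostatin gene, rose by 0.33, Dlx1, a transcription factor of these neurons, by 0.16 and Reln, the reelin gene, by 0.15. Cck (-0.43), the cholecystokinin gene, and Pvalb (-0.20), the parvalbumin gene, fell; both are outside the naming rule. Of 11 markers of excitatory neurons 2 rose and 5 fell (median -0.079), with sums of 16543 to 16661 with microglial and 18271 to 18635 with astrocytic apoE. Neurod6 (-0.47) and Camk2a (-0.15) fell and Bcl11b rose (0.12). Leaving out any 1 sample other than astrocytic sample 3 gave 1 higher gene, and leaving out microglial sample 3 gave 3 lower genes. In bulk samples fewer cells of a type and less RNA per cell cannot be told apart, and the part of either marker list in the changes of Gad1, Gad2, Slc32a1 or the receptors was not tested.

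The cultures are labelled as neurons, and the 9 general neuron markers summed to 67572 to 67967 with microglial and 70497 to 71347 with astrocytic apoE. The 13 astrocyte markers summed to 72976 to 73573 with microglial and 85774 to 86895 with astrocytic apoE. The sums are not corrected for length and the lists hold different numbers of genes. The neuron and astrocyte sums therefore cannot be compared with each other, only each between the groups. Of 12 astrocyte markers tested, 10 fell and 1 rose (median -0.19). Aqp4, the water channel, fell by 0.41, and Fabp7, a lipid binding protein, by 0.40, whereas Slc1a3, a glutamate transporter, rose by 0.094. Without astrocytic sample 3 the higher genes were 2. The part of these astrocyte markers in the fall of Slc6a11 was not tested. All 5 genes of dividing cells fell (median -0.59), with sums of 1121 to 1134 with microglial and 1821 to 1881 with astrocytic apoE. The log2 fold change was -0.835 for Top2a, -0.82 for Mki67 and -0.58 for Ccna2. Among the general neuron markers 4 fell and 0 rose (median -0.0255), with Map2 at -0.105, Stmn2 at -0.13 and Tubb3, which did not pass, at 0.029. The call of Map2 was lost without astrocytic sample 2 (adjusted p = 0.051). Leaving out any 1 sample gave 2 to 3 lower neuron markers, with 2 without astrocytic sample 2.

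Microglial markers were low, with sums of 300.1 to 303.2 with microglial and 294.1 to 297.2 with astrocytic apoE, and 1 of 9 tested rose and 0 fell. The 3 most abundant on the list were genes of the complement protein C1q, of which C1qc rose (0.059, adjusted p = 0.039) and C1qa (0.041) and C1qb (0.005) did not pass. The call of C1qc was lost on leaving out any 1 sample other than microglial sample 2 (adjusted p = 0.063 to 0.186). In the oligodendrocyte lineage 1 of 8 rose (Olig2, 0.15) and 2 fell (Pdgfra, -0.38, and Sox10, -0.11, named after their values were seen), with Olig1 at 0.009 and Mbp at -0.044, neither of which passed. Of 4 tested endothelial and fibroblast markers 2 rose (Col1a1, 0.21, and, outside the naming rule, Col1a2, 0.082), while Dcn (-0.057) and Col3a1 (0.041) did not pass. Without microglial sample 2 or astrocytic sample 1, 1 of them rose. No marker of any list was listed at 0.

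**Figure D5:**
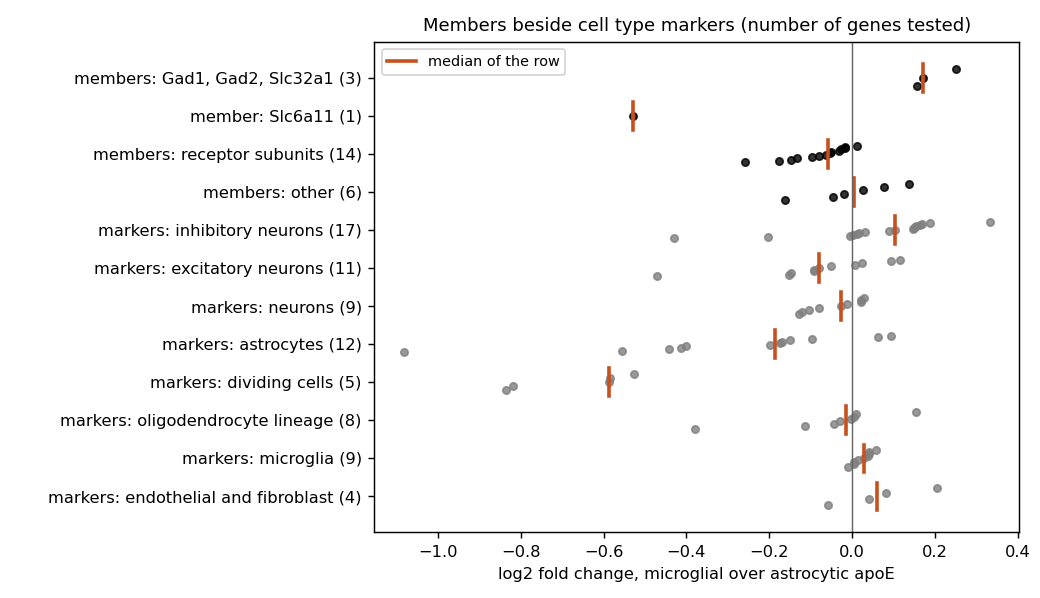
Log2 fold change (x axis, microglial over astrocytic apoE) of the members by role (black) and of the tested markers of each cell type (grey), 1 point per gene, with the row's median in orange and the number of genes tested in parentheses. Inhibitory neuron markers have a median of 0.10 and astrocyte markers one of -0.19.

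The deposited scale limits how these values can be read. For 14 of the 24 members the SD within groups was under the SD that counting alone would give if the linear value were a count, so their SEs and p-values may be too small. If the scale is a regularized logarithm, which was inferred from the values, fold changes of weakly expressed genes such as Gabre and Gabrd are drawn toward 0. The scaling between samples also moved the calls. Of all calls, 52.4% were higher as deposited, 34.8% with median centring and 65.6% with equal sums, and the members gave 4 higher and 10 lower with median centring and 5 higher and 6 lower with equal sums.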

How the data were processed

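RNA of 6 samples (3 with microglial, 3 with astrocytic apoE particles) was sequenced on a DNBSEQ platform, per the labels' protocols. The authors deposited 1 log2 value per gene symbol and sample. DESeq2, featureCounts, FastQC, HISAT2 and GRCm38 appear in the submitters' processing notes, without versions, annotation or strand setting. The transformation is not stated. The same 21031 symbols are at 0 in all 6 samples, and low genes are drawn to their mean, as in a regularized logarithm, which is inferred from the values. Depth is unknown. The summed linear value was 18060473 to 18337624 per sample, which is a common scale and no read count.

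Values were tested with limma 3.58.1 (R 4.3.3; trend and robust options; no covariate) on genes at or above the log2 of 10 in 3 samples, with Benjamini-Hochberg adjustment over all of them, after a check on simulated data. Pairs of members were tested by exact permutation (scipy 1.17.1). Errors are moderated SEs or SDs over 3 samples. Exon lengths and positions are from GENCODE M21 (GRCm38), and start windows from RefSeq. The members and lists were chosen with earlier results of these data known. All members, up to 4 genes with the smallest p per pathway list and the 3 most abundant per marker list are named. Some genes of these pathways and lists are not reported here. Alternatives were 2 filters, 2 scalings, limma without its options, the replicate number as a block and leaving out each sample.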

Additional observations from a re-analysis of the deposited data

How the results depend on the processing

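Of the 12 called members, 10 kept their direction and call in all 12 alternatives, and Gabra2 and Slc12a5 did not. The cause of the changes was not tested. The counts of called members were 4 to 5 higher and 6 to 8 lower on leaving out 1 sample. The median log2 fold change of the receptor subunits was -0.076 with median centring and -0.079 to -0.048 on leaving out 1 sample, and that of the synthesis, release and uptake genes was 0.146 with median centring and 0.1455 to 0.18 on leaving out 1 sample. The values -0.079 and 0.1455 came without astrocytic sample 3. Genes that did not pass and changed sign were Gabre (-0.006), C1qb (-0.013) and Olig1 (-0.009) with median centring and, on leaving out 1 sample, Gabrb1 (-0.056 to 0.001), C1qb (-0.008 to 0.025) and Olig1 (-0.017 to 0.034). Over the pathway and marker lists, 294 counts of calls stayed within 1.5 times and 42 did not. With the replicate number as a block, 4 members were higher and 7 lower; Slc12a5 lost its call. Deviations of samples with the same number correlated at 0.039, -0.12 and -0.19 across genes, and those with different numbers at -0.12 to 0.176. Deviations from a mean of 3 samples depend on each other, so these values cannot tell whether the numbers pair the samples. Depth is unknown, and no interval for counting error can be given.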
